A study of Mus musculus with 40 samples.

Results

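The genes described are 7 genes of Müller glia homeostasis, namely *Glul*, *Slc1a3*, *Aqp4*, *Kcnj10*, *Dkk3*, *Abca8a* and *Sox9*. They were given as a list of symbols and matched by Ensembl identifier, and they are 7 of the 54307 genes in the table. RNA sequencing was done on retina and choroid of the same 20 mice (40 libraries), collected 3 days after 6 laser burns per eye had been set to induce choroidal neovascularization; of the choroid, only the middle region that held the burns was used. Both genotypes, control and *Tgfbr2*ΔEC, were kept without (– PLX) or with (+ PLX) PLX5622, with 5 mice for each combination, and the comparisons ask whether loss of endothelial TGFβ signaling and depletion of mononuclear phagocytes (MP) altered these glial genes. All mice were *Tgfbr2* fl/fl on a C57BL/6J background, of both sexes, and all received tamoxifen eye drops at 6 to 7 weeks of age, controls included. *Tgfbr2*ΔEC mice carried in addition a heterozygous tamoxifen-inducible Cre recombinase driven by the endothelial *Cdh5* promoter. PLX5622, an inhibitor of the CSF1 receptor, was fed from the first tamoxifen dose to the end of the experiment, and the – PLX groups ate control food.

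Müller glia are the radial glia of the retina and span its whole depth. They take up glutamate released by neurons and turn it into glutamine, carry potassium and water from the neural layers towards vessels and vitreous, and keep a glial transcription programme in the adult. When the retina is injured, they can lower these genes and raise those of reactive gliosis. In bulk tissue, fewer cells of a type and less RNA per cell cannot be told apart.

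All 7 members are protein-coding genes, and positions are those of GRCm39. *Glul* (ENSMUSG00000026473, chr1:153775690-153785469, plus strand) encodes glutamine synthetase, and *Slc1a3* (ENSMUSG00000005360, chr15:8663604-8741595, minus strand) the glutamate transporter GLAST. *Kcnj10* (ENSMUSG00000044708, chr1:172168765-172201652, plus strand) encodes the inwardly rectifying potassium channel Kir4.1, and *Aqp4* (ENSMUSG00000024411, chr18:15522451-15544039, minus strand) the water channel aquaporin-4. *Dkk3* (ENSMUSG00000030772, chr7:111712904-111758760, minus strand) encodes a secreted glycoprotein of the Dickkopf family, and *Abca8a* (ENSMUSG00000041828, chr11:109916460-109986869, minus strand) an ABC transporter. *Sox9* (ENSMUSG00000000567, chr11:112673009-112678586, plus strand) encodes a transcription factor of glia, and also of cartilage and other lineages.

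Values are normalized counts, that is, estimated reads per gene scaled between libraries, and the approximate depth was 20960636 to 30544820 reads per retina and 21449454 to 28552910 per choroid. The whole-tissue level of the targeted gene *Tgfbr2* did not separate the genotypes in either tissue. Its level was 10503 ± 425 in control – PLX and 10176 ± 1077 in *Tgfbr2*ΔEC – PLX choroids, and 11155 ± 1530 in control + PLX and 11220 ± 454 in *Tgfbr2*ΔEC + PLX choroids (mean ± SD, n = 5). In retina it was 213 ± 55.4 in control – PLX and 178 ± 73.8 in *Tgfbr2*ΔEC – PLX mice, and with PLX it ran from 66.4 to 155 in controls and from 91.5 to 140 in *Tgfbr2*ΔEC mice. The deletion is endothelial, so whole-tissue levels cannot check it. The paper reports that TGFβRII was lost from the endothelium of both tissues. MP markers fell with PLX in both tissues, all 9 tested in retina and 8 of 9 in choroid. All 8 Müller glia and all 10 rod markers were above 3 normalized counts in all 20 retinae. The choroid libraries also held RNA of pigment epithelium, melanocytes and skeletal muscle, with all markers of these lists above 3 normalized counts in all 20 choroids, and rod RNA in amounts that differed between mice (10 rod genes summing to 4047 to 137605, against 1028150 to 1536350 in retina).

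In the retina, the 7 genes formed a wide ladder of levels that varied little between mice. *Glul* had 43537 ± 6545 normalized counts over all 20 retinae (mean ± SD), *Dkk3* 16901 ± 1515, *Abca8a* 4871 ± 938, *Slc1a3* 4655 ± 396, *Aqp4* 3003 ± 635, *Kcnj10* 2570 ± 378 and *Sox9* 511 ± 60.5. The coefficient of variation was lowest for *Slc1a3* (8.499%) and *Dkk3* (8.96%) and highest for *Abca8a* (19.3%) and *Aqp4* (21.1%).

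Per kilobase of the canonical transcript, *Glul* stood at 25550 ± 3841 normalized counts per kb in retina, above *Dkk3* at 2821 ± 253 in 20 of 20 mice. *Slc1a3* followed at 1110 ± 94.3 per kb, above *Abca8a* (857 ± 165) in 18 mice. *Abca8a* was above *Aqp4* (583 ± 123) in 17 mice, and *Aqp4* above *Kcnj10* (474 ± 69.8) in 19. *Sox9*, the one transcription factor among them, was lowest at 122 ± 14.5 per kb in 20 of 20 mice. With the length of all exons joined, *Slc1a3* dropped to 319 ± 27.1 per kb, below *Aqp4* (458 ± 96.8), so its place in the order depends on which length is used. The other change was that *Kcnj10* then stood above *Aqp4* in 15 of 20 mice.

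**Figure D1:**
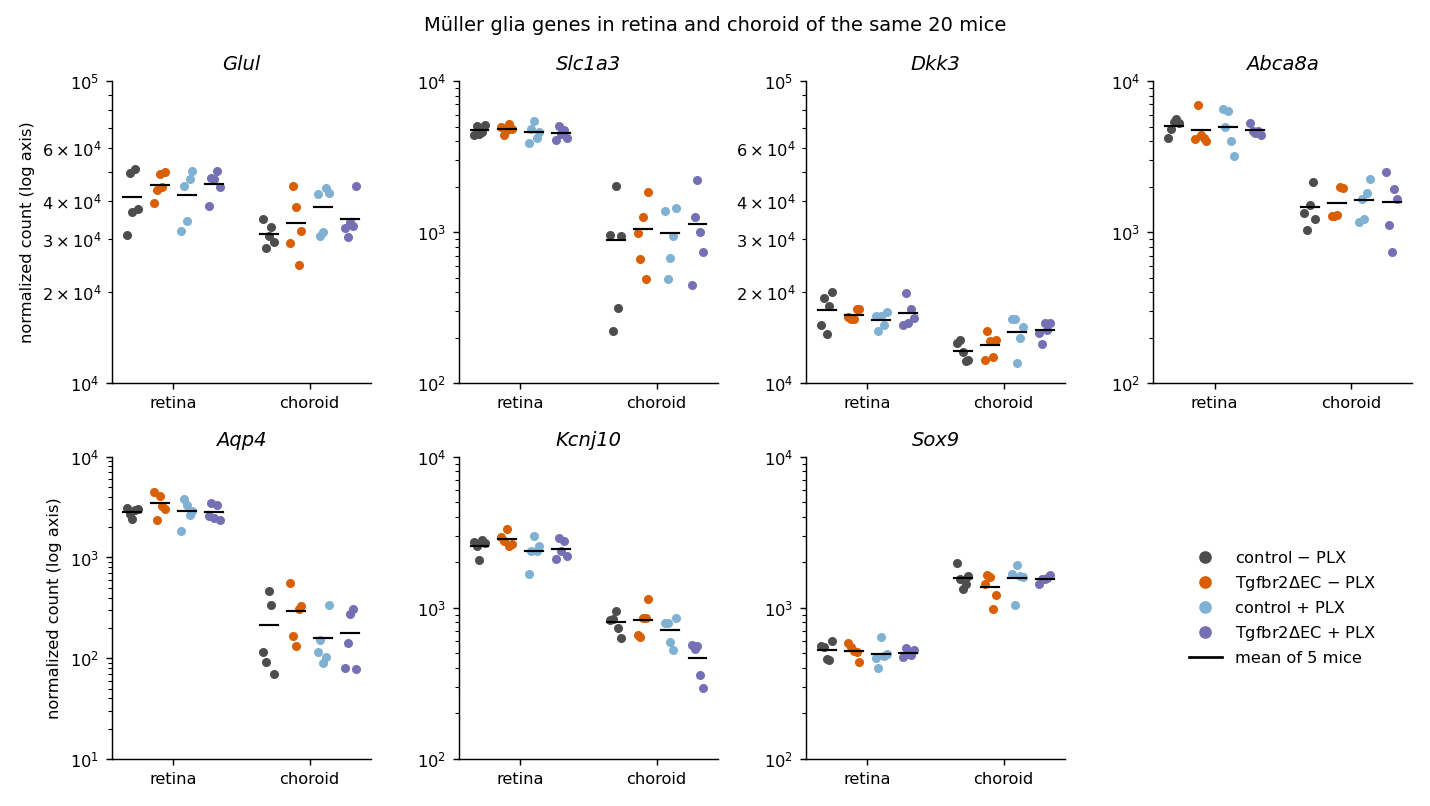
Normalized counts (log axis) of the 7 genes in retina and choroid, one point per mouse, coloured by group, with black lines at the mean of 5 mice. The retina points of the 4 groups lie on top of each other for every gene, *Sox9* is the one gene higher in choroid, and *Slc1a3* and *Aqp4* spread widely between choroids.

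None of the 7 genes passed the test between genotypes in the retina. Without PLX, *Glul*, the glutamine-forming enzyme, measured 30944, 49698, 36822, 51315 and 37753 normalized counts in controls and 39339, 43524, 49264, 44572 and 49859 in *Tgfbr2*ΔEC mice, so that all *Tgfbr2*ΔEC values fell inside the control range. *Aqp4* had the largest difference, from 3118, 2692, 2414, 2972 and 3052 in controls to 4484, 2363, 4093, 3246 and 3026 in *Tgfbr2*ΔEC mice. Its groups overlapped, with a log2 difference of 0.24 (95% interval −0.13 to 0.62; two-sided exact permutation p = 0.214). The channel *Kcnj10*, which shares the glial endfeet with aquaporin-4, differed by 0.16 (−0.12 to 0.44) and the transporter *Slc1a3* by 0.03 (−0.16 to 0.22). By limma, which fits a linear model to every gene, with Benjamini-Hochberg adjustment over 23243 genes, 0 of 7 members were called (adjusted p at or under 0.05), and the share called among all genes was 0%. At an unadjusted p under 0.05 there were 758 genes, and the lowest adjusted p of a member was 0.985.

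With PLX, the genotypes again did not separate in retina. *Aqp4* was 2883 ± 726 in control + PLX and 2839 ± 507 in *Tgfbr2*ΔEC + PLX retinae (mean ± SD, n = 5), a log2 difference of 0.00 (95% interval −0.37 to 0.37). The largest difference was that of *Glul*, at 0.15 (−0.17 to 0.46), while *Slc1a3* differed by −0.03 (−0.22 to 0.16). Again limma called 0 of 7 members and 0% of all genes, although 629 passed an unadjusted p of 0.05. The change of the genotype difference between diets was also called for 0 of 7 members and 0% of genes by limma (567 genes at an unadjusted p under 0.05).

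Depletion of MP left the retinal levels of the 7 genes within narrow bounds. *Kcnj10* showed the largest difference, with 2734, 2550, 2067, 2815 and 2672 normalized counts in control – PLX and 1673, 2371, 2983, 2363 and 2570 in control + PLX mice. In *Tgfbr2*ΔEC mice its values were 2944, 2785, 3335, 2573 and 2657 without and 2092, 2881, 2374, 2749 and 2203 with PLX. The diets overlapped in both genotypes, and over both genotypes the log2 difference was −0.17 (95% interval −0.37 to 0.03; exact permutation p = 0.0895; limma adjusted p = 0.901). For *Slc1a3* the interval ran from −0.21 to 0.06 and for *Dkk3* from −0.19 to 0.10, so a change of either by 0.21 or more on the log2 scale lies outside it. The widest interval was that of *Aqp4* (−0.40 to 0.13). Of the 7 members 0 were called by limma, while 1.09% of all genes were (254 of 23243; 1459 at an unadjusted p under 0.05). In the same libraries the complement gene *C1qc* fell by 7.75 and the fractalkine receptor *Cx3cr1* by 7.36 on the log2 scale (limma adjusted p = 4.94e-13 and 7.93e-13), both genes of microglia.

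**Figure D2:**
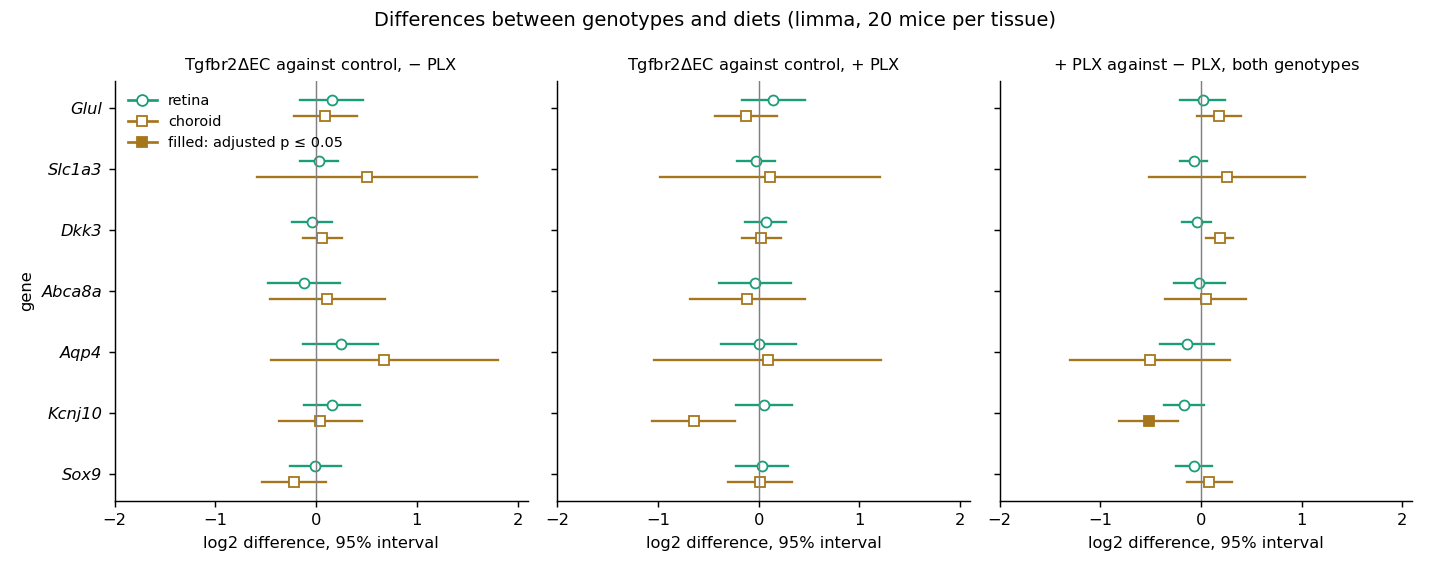
Log2 differences of the 7 genes with their 95% intervals from limma for both genotype comparisons and for PLX over both genotypes, with circles for retina and squares for choroid. Retinal intervals are short and include 0 throughout, choroidal intervals of *Slc1a3* and *Aqp4* are long, and the one filled symbol (adjusted p at or under 0.05) is *Kcnj10* in choroid with PLX.

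Of 68 further glial genes tested in retina, 3 (4.41%) were called with PLX, all lower, beside 1.09% of all genes. With PLX, limma called 0 of 11 genes of glutamate and amino acid handling (median log2 difference 0.03), 0 of 11 of potassium and water handling (0.03), 0 of 13 glial transcription factors (−0.07) and 0 of 12 further Müller glia genes (−0.02), while the median over all genes was 0.00. Of 8 genes tested from the ABCA8 family and Wnt modulators, the transporter gene *Abca9* fell by 1.27 (adjusted p = 0.00431). Of 13 genes of reactive gliosis, *Lcn2*, which encodes the iron-siderophore carrier lipocalin-2, fell by 2.00 (adjusted p = 0.0187) and *Steap4*, a metalloreductase gene, fell by 1.91 (adjusted p = 0.00216). No list member was called between genotypes.

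Across the 20 retinae, the members did not vary as one block. *Aqp4* and *Kcnj10*, water and potassium channel of the same endfeet, had the closest pair of profiles (Pearson's r = 0.78), and the glutamate transporter *Slc1a3* went with both (r = 0.70 with *Kcnj10* and 0.69 with *Aqp4*). *Slc1a3* also went with *Dkk3* (r = 0.51). *Glul* stood outside this group, with r between −0.44 for *Abca8a* and 0.35 for *Kcnj10*. The median over the 21 pairs was 0.23, and 4 pairs were above 0.5. These correlations share the libraries and their scaling and are given as a description. Genes outside the list came closer still, with r up to 0.91 for *Aqp4*, 0.87 for *Kcnj10* and 0.85 for *Slc1a3*.

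**Figure D3:**
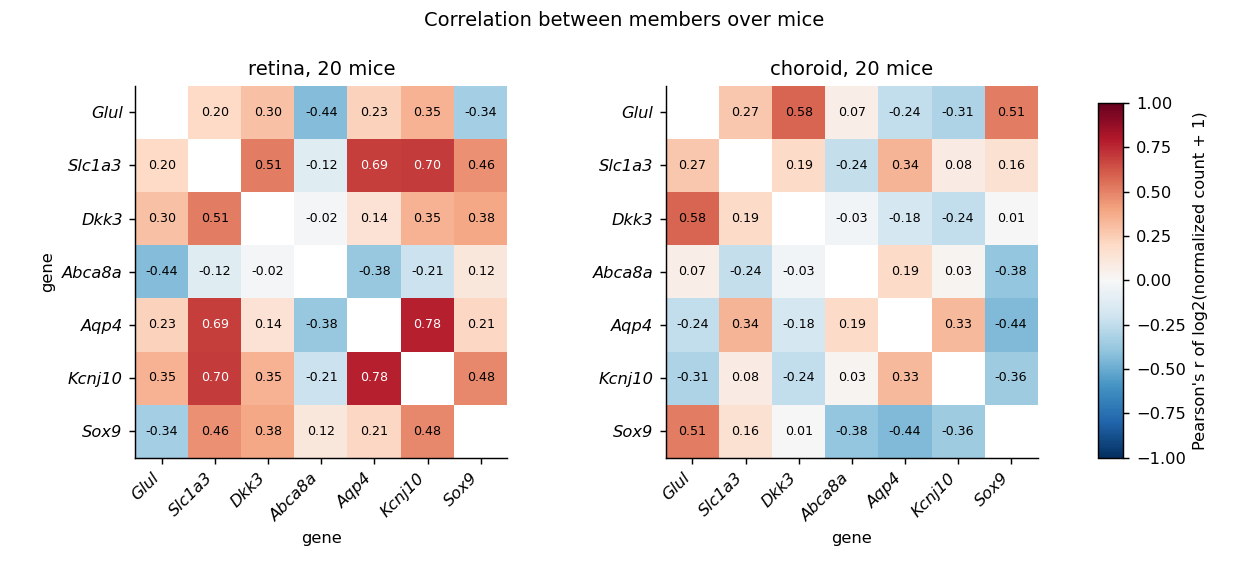
Pearson's r between the 7 genes over 20 mice, on log2(normalized count + 1), for retina and for choroid. In retina *Slc1a3*, *Aqp4* and *Kcnj10* form a block with r from 0.69 to 0.78, and in choroid the same 3 genes reach 0.34 at most.

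The genes most alike a member over the 20 retinae, among those with a mean of at least 100 normalized counts, were *Slc7a2* (r = 0.91), *Efcab14* (0.90) and *Ildr2* (0.88) for *Aqp4*. For *Kcnj10* they were *Jcad* (0.87), *Tmem127* (0.87) and *Btbd1* (0.86), and for *Slc1a3* they were *Lman1* (0.85), *Cdh2*, which encodes N-cadherin (0.84), and *Ssr3* (0.81). Among the genes most alike *Glul* were *Map4* (0.84) and *Sh3bp5* (0.82). *Dkk3* was most alike *Sbspon* (0.80), *Eno1* (0.78) and *Pcdhb9* (0.76), *Abca8a* was most alike *Nrdc* (0.84), *Zfyve21* (0.79) and *Ift25* (0.78), and *Sox9* was most alike *Zcchc24* (0.84), *Kctd10* (0.81) and the Dickkopf receptor gene *Kremen1* (0.80).

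Of the members' correlations with marker scores in retina, 1 passed adjustment over the 126 computed for 7 genes, 9 lists and both tissues. A score is the mean log2(normalized count + 1) of a list. *Glul* rose with the score of inner retinal neurons (Pearson's r = 0.72, permutation p = 0.00013, adjusted 0.00546; Spearman's rho = 0.68, permutation p = 0.00121, adjusted 0.0254). When the 2 mice farthest from the median score were left out, r was 0.65, and with group means removed it was 0.70.

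Set against the choroid of the same mouse, 6 of the 7 genes were higher in retina and *Sox9* was higher in choroid. *Aqp4* differed most, with 3003 ± 635 normalized counts in retina and 212 ± 141 in choroid (mean ± SD, n = 20), a 16.9-fold difference (95% interval 12.9 to 22.1). *Slc1a3* was 5.36-fold (4.10 to 7.004), *Kcnj10* 3.78-fold (3.24 to 4.41) and *Abca8a* 3.21-fold (2.70 to 3.82) higher in retina. *Glul* at 1.26-fold (1.14 to 1.40) and *Dkk3* at 1.21-fold (1.12 to 1.31) were nearly as abundant in choroid, at 34561 ± 6146 and 13949 ± 1548 normalized counts. *Sox9* reached 1521 ± 244 in choroid against 511 ± 60.5 in retina, its retinal level being 0.339 times the choroidal one (0.315 to 0.364). All 7 were called by limma with the mouse as replicate block (adjusted p from 3.89e-19 to 0.000191), beside 82% of all genes, so being called says little about these genes in particular. Without the replicate block 7 members and 19929 genes were called, against 19932 with it.

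The choroidal level as a percentage of the retina of the same mouse gave the same order without pooling. The median was 302% for *Sox9* (range 193% to 359%), 86.2% for *Dkk3*, 77.9% for *Glul*, 31.4% for *Abca8a*, 25.98% for *Kcnj10*, 20.5% for *Slc1a3* and 5.20% for *Aqp4*. *Sox9* was above 100% in 20 of 20 mice, *Glul* in 4 and *Dkk3* in 1. Rod genes of the same choroids had a median of 1.83% (0.174% to 10.1%). *Glul*, *Kcnj10*, *Dkk3*, *Abca8a* and *Sox9* exceeded the rod percentage in 20 of 20 mice, *Slc1a3* in 19 and *Aqp4* in 18.

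**Figure D4:**
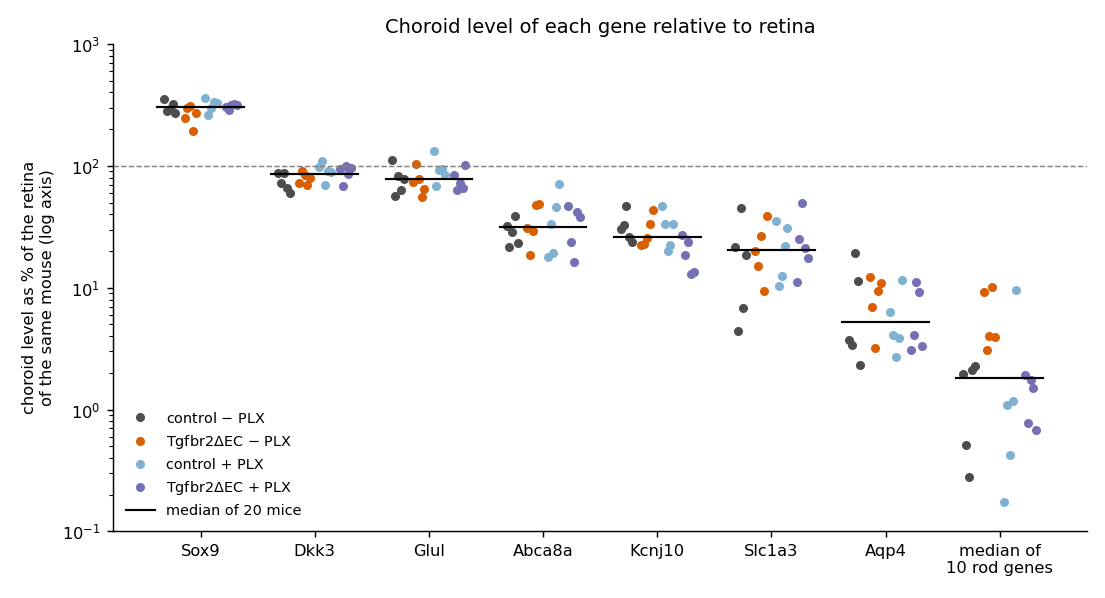
Level of each gene in choroid as a percentage of the retina of the same mouse (log axis, dashed line at 100%), with one point per mouse, lines at the median of 20 mice, and the median of 10 rod genes at the right. *Sox9* lies above 100% in every mouse, *Dkk3* and *Glul* near it, and *Aqp4* comes closest to the rod genes.

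Of 68 further glial genes tested, 63 (92.6%) were called between the tissues, 26 higher in retina and 37 in choroid, beside 82% of all genes. Of 11 genes of glutamate and amino acid handling, 7 were higher in retina and 4 in choroid, with *Slc1a2*, the transporter GLT-1, 28.2-fold and the glutamine transporter gene *Slc38a3* 4.49-fold higher in retina, and the retinal levels of the transporter gene *Slc1a1* and of *Glud1*, glutamate dehydrogenase, at 0.183 and 0.571 times the choroid. Of 11 genes of potassium and water handling, 5 were higher in retina, 4 in choroid and 2 were not called. The potassium channel gene *Kcnk1* was 7.17-fold higher in retina, while *Aqp1*, *Car14* and *Dag1* stood at 0.221, 0.190 and 0.250 times the choroid. Among 13 glial transcription factors 6 were higher in retina and 7 in choroid, and the 4 with the lowest p, *Id1*, *Nfib*, *Id3* and *Nfia*, were all higher in choroid (retina at 0.0925, 0.198, 0.0601 and 0.272 times choroid). The eye field factors *Pax6* and *Rax*, named after their values were seen, were 61.2-fold and 57.6-fold higher in retina. Of 12 further Müller glia genes 4 were higher in retina, such as *Gpr37* (11.6-fold), and 8 in choroid, such as *Rdh10* and *Clu* (retina at 0.0802 and 0.237 times choroid). Of 8 genes from the ABCA8 and Wnt list 2 were higher in retina and 6 in choroid, with the Wnt modulators *Sfrp2*, *Dkk2* and *Sfrp1* at 0.000985, 0.00584 and 0.0401 times choroid in retina. Of 13 gliosis genes 2 were higher in retina, 8 in choroid and 3 were not called, and the filament genes *Vim* and *Nes* stood at 0.103 and 0.0887 times choroid in retina. All these calls are adjusted p-values of limma, and the median log2 difference of all genes was 0.01. Scaling each library to the same total moved that median to 0.12 and left the direction of the 7 members as given.

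In the choroid, the level of the glutamate transporter varied 9.91-fold between mice. *Slc1a3* ran from 222 to 2199 normalized counts (coefficient of variation 54.7%, against 8.499% in retina). Its values were 960, 222, 2006, 316 and 947 in control – PLX mice, 986, 664, 1258, 487 and 1846 in *Tgfbr2*ΔEC – PLX mice, 1388, 491, 675, 936 and 1441 in control + PLX mice, and 450, 1263, 2199, 1001 and 736 in *Tgfbr2*ΔEC + PLX mice. High and low choroids occurred in each group, and the groups overlapped throughout.

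*Aqp4* spread in a similar way, from 70.3 to 553 (66.7%), while *Kcnj10* ran from 296 to 1150 (29.1%), *Abca8a* from 739 to 2482 (29.8%), *Glul* from 24610 to 44894 (17.8%), *Sox9* from 984 to 1966 (16.04%) and *Dkk3* from 11638 to 16307 (11.1%). Per kilobase of the canonical transcript *Sox9* came after *Glul* and *Dkk3* in choroid, at 364 ± 58.4 normalized counts per kb, above *Abca8a* (274 ± 81.5) in 14 of 20 mice, and *Abca8a* was above *Slc1a3* (242 ± 132) in 12, so on this length these neighbours did not differ beyond their spread. With all exons joined, *Slc1a3* stood at 69.5 ± 37.98 per kb, below *Abca8a* (238 ± 70.9) and, in 18 of 20 mice, below *Kcnj10*.

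The choroidal level of *Slc1a3* moved with the score of a list of retinal astrocyte markers (*Gfap*, *Pax2*, *Aldh1l1* and *S100b*). In choroid this list is not specific to astrocytes, since *S100b* had 7174 normalized counts there against 169 in retina and *Aldh1l1* had 827 against 509. Pearson's r with the score was 0.83 (permutation p = 2e-05, adjusted 0.00189) and Spearman's rho 0.86 (permutation p = 2e-05, adjusted 0.00252). The r was 0.85 when the 2 mice farthest from the median were left out, 0.86 with group means removed, and 0.73 in the 17 mice left when the 3 with the lowest scores (7.42 to 7.74, against 8.87 to 10.5) were taken out. The intermediate filament gene *Gfap* alone, chosen after its values were seen, ran from 111 to 5177 normalized counts and had r = 0.91 with *Slc1a3*. Of the other genes of the list, *Pax2* had r = 0.83, *Aldh1l1* 0.31 and *S100b* 0.04. The gene most alike *Slc1a3* in choroid was *Mlc1*, which encodes a membrane protein of astrocyte endfeet (r = 0.95), followed by *Ppfia3* and *Cartpt* (both r = 0.92). All 3 were several times higher in retina than in choroid, with means of 2123 and 371 for *Mlc1*. The part of astrocyte RNA in the level of *Slc1a3* was not tested.

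*Dkk3* and *Glul*, the members nearly as high in choroid as in retina, moved with pigmented cell markers there. *Dkk3* correlated with the melanocyte score (r = 0.82, permutation p = 3e-05, adjusted 0.00189; rho = 0.77, permutation p = 8e-05, adjusted 0.00504), with r = 0.76 without the 2 farthest mice and 0.77 with group means removed. It also correlated with the pigment epithelium score (r = 0.70, permutation p = 0.00069, adjusted 0.0174; rho = 0.70, permutation p = 0.00076, adjusted 0.0239), with 0.61 without the 2 farthest mice and 0.76 with group means removed. *Glul* correlated with the pigment epithelium score (r = 0.71, permutation p = 0.00037, adjusted 0.0117; rho = 0.73, permutation p = 0.0003, adjusted 0.0126), with 0.61 and 0.72 in the same checks. With the melanocyte score *Glul* had r = 0.51, which did not pass (permutation p = 0.0229, adjusted 0.18). *Dkk3* also had r = 0.64 with the endothelium score and −0.61 with the MP score. Neither passed adjustment (permutation, adjusted 0.0573 and 0.0906), and with group means removed they were 0.34 and −0.22. In choroid the highest r between members was 0.58, for *Glul* with *Dkk3*, followed by 0.51 for *Glul* with *Sox9*, and the median of 21 pairs was 0.03. *Slc1a3*, *Aqp4* and *Kcnj10* had r from 0.08 to 0.34 with each other in choroid.

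The genes most alike the other members in choroid were *S100b* (r = 0.88), *AI854703* (0.86) and *Itgbl1* (0.86) for *Dkk3*, and *Pld1* (0.85), *Adipor2* (0.84) and *Kdsr* (0.84) for *Glul*. For *Sox9* they were *Slc4a2*, an anion exchanger gene (0.94), *Parm1* (0.90) and *Efcab14* (0.89). *Aqp4* was most alike *Dnajc27* (0.80), *Wnk2* (0.80) and *Pde4a* (0.80), *Kcnj10* was most alike *Mrpl9* (0.77), *Lpcat2* (0.75) and *Cd38* (0.74), and *Abca8a* was most alike *Asb16* (0.72), *Fgf13* (0.68) and *Car10* (0.68). Between the retina and the choroid of the same mouse, *Sox9* had r = 0.61, and the other members lay between −0.33 and 0.25.

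**Figure D5:**
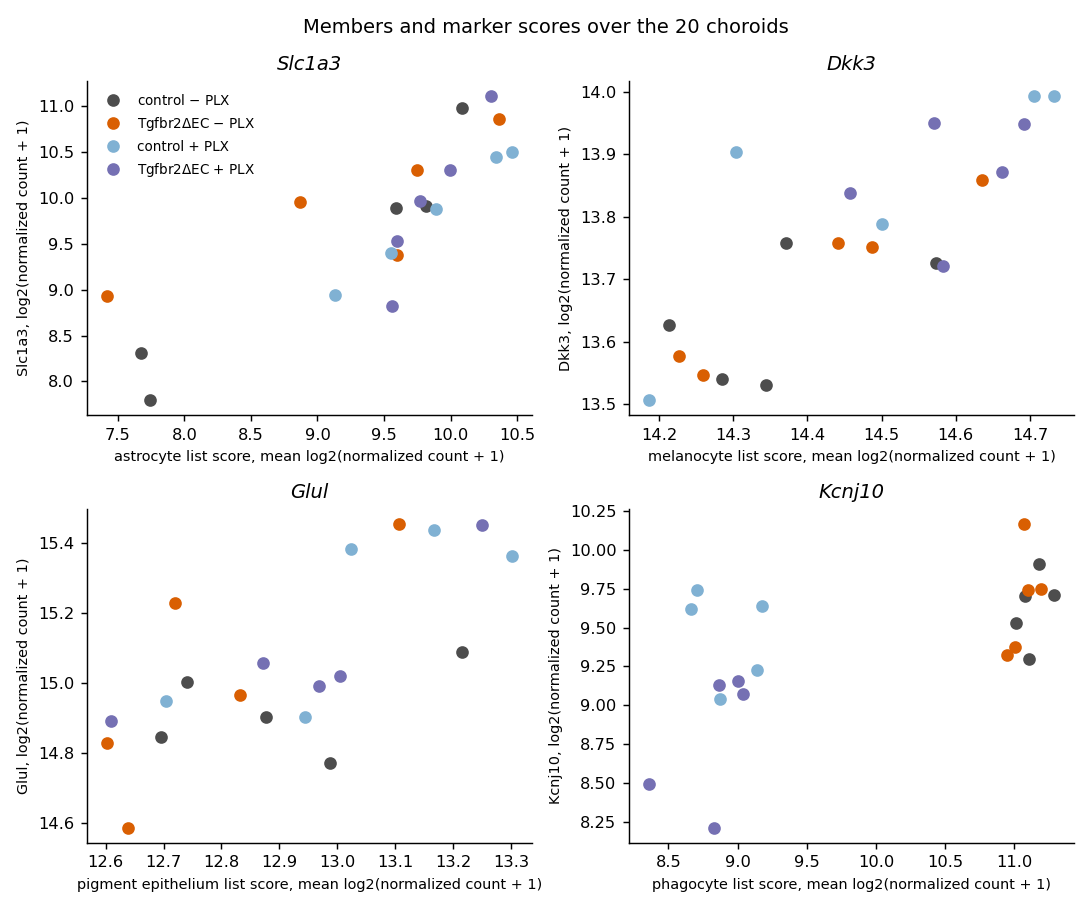
Log2(normalized count + 1) of *Slc1a3*, *Dkk3*, *Glul* and *Kcnj10* in 20 choroids against the score of the astrocyte list, melanocytes, pigment epithelium and phagocytes, each point 1 mouse coloured by group. The first 3 genes rise along their score within groups, while the phagocyte score splits the mice by diet into 2 clusters.

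None of the 7 genes passed the test between genotypes in choroid. Without PLX, *Aqp4* measured 115, 90.7, 464, 335 and 70.3 normalized counts in controls and 553, 165, 131, 307 and 330 in *Tgfbr2*ΔEC mice, overlapping, with a log2 difference of 0.68 (95% interval −0.45 to 1.80; exact permutation p = 0.302). *Slc1a3* differed by 0.51 (−0.59 to 1.599) and *Sox9* by −0.22 (−0.53 to 0.10), while *Dkk3* at 0.06 (−0.13 to 0.26) had the shortest interval. Limma called 0 of 7 members and 0.00423% of all genes (2184 genes at an unadjusted p under 0.05; lowest adjusted p of a member 0.763). The 1 gene behind this share became 201 in the fit of the 10 mice without PLX and 410 in the fit without mouse 15, a control + PLX choroid, while 0 members were called in either. The rod score of the same choroids was 9.58 in control – PLX and 11.99 in *Tgfbr2*ΔEC – PLX mice. With this score as a covariate, *Aqp4* and *Slc1a3* kept the sign of their differences and were not called. Because the score itself separated the genotypes, that fit cannot give its part in these differences.

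The potassium channel gene *Kcnj10* was the one member called after MP depletion in choroid, where it was lower. In controls it measured 833, 838, 960, 738 and 630 normalized counts without and 788, 797, 598, 525 and 856 with PLX, and these ranges overlapped. In *Tgfbr2*ΔEC mice it measured 663, 641, 858, 857 and 1150 without and 569, 537, 559, 359 and 296 with PLX. All *Tgfbr2*ΔEC + PLX choroids were below all *Tgfbr2*ΔEC – PLX choroids. The share of all genes that separate these groups in the same way is not given here. Exact permutation p-values are not adjusted for the number of tests. Over both genotypes *Kcnj10* fell by 0.52 on the log2 scale (SE 0.14, 0.698-fold, 95% interval 0.571 to 0.854; limma adjusted p = 0.0250; exact permutation p = 0.00457). The log2 difference was −0.18 in controls (exact permutation p = 0.325) and −0.86 in *Tgfbr2*ΔEC mice (exact permutation p = 0.0079, the smallest that 5 against 5 mice allow).

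Of the 7 members 1 was thus called with PLX in choroid, where 7.13% of all genes were called (1684 of 23619). The call was lost with the rod score as a covariate (log2 difference −0.50, adjusted p = 0.0684) and when mouse 3, 14 or 19 was left out (−0.48, −0.47 and −0.48, with adjusted p = 0.0508, 0.0551 and 0.0540 from limma). The difference over diets of the rod score itself was −1.03. The MP score differed by −2.23, and since it fell into 1 cluster per diet no correlation over all mice is given. With group means removed, r of *Kcnj10* was 0.29 with the MP score and −0.38 with the MP gene *Csf1r* alone, which encodes the receptor inhibited by PLX5622. Values for the other genes of the MP list singly are not given.

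Between the genotypes + PLX, *Kcnj10* was lower in *Tgfbr2*ΔEC mice by a log2 difference of −0.64 (95% interval −1.05 to −0.23; exact permutation p = 0.0397), which did not pass limma's adjustment over all genes (adjusted p = 1). Of the 25 pairs of a *Tgfbr2*ΔEC + PLX and a control + PLX choroid, the *Tgfbr2*ΔEC value was higher in 3. Sex, judged from Y-linked genes and *Xist*, was not balanced between these groups. In this comparison limma called 0 of 7 members and 0.00423% of genes, although 889 passed an unadjusted p of 0.05. The genotype effect on *Kcnj10* differed between diets by 0.68 (0.10 to 1.27; exact permutation p = 0.0501; limma adjusted p = 0.656). That comparison of effects called 0 of 7 members and 0% of all genes by limma (1552 at an unadjusted p under 0.05).

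The other members were not called with PLX in choroid. *Dkk3* came closest, at 13548, 13860, 12640, 11826 and 11905 normalized counts in control – PLX against 16307, 16306, 11638, 14149 and 15326 in control + PLX mice, and at 11960, 14865, 13791, 12216 and 13854 against 14651, 13502, 15826, 14995 and 15803 in *Tgfbr2*ΔEC mice. The diets overlapped in both genotypes, with a log2 difference of 0.18 (95% interval 0.05 to 0.32; exact permutation p = 0.00973; limma adjusted p = 0.107). Without mouse 13, the low control + PLX choroid, it was 0.23 (limma adjusted p = 0.0171). *Dkk3* was called in only 1 of the 20 fits with a mouse left out, and its limma adjusted p reached 0.191 among them. The melanocyte score, with which *Dkk3* moved, differed by 0.16 and that of pigment epithelium by 0.14 between diets. *Glul* differed by 0.18 (−0.04 to 0.40), *Sox9* by 0.08 (−0.14 to 0.31) and *Abca8a* by 0.05 (−0.36 to 0.45). *Aqp4* differed by −0.51 (0.703-fold, −1.30 to 0.29), about as much as *Kcnj10* but with a wider spread between mice, and *Slc1a3* by 0.26 (−0.52 to 1.03), while the astrocyte list score was higher by 0.77 with PLX; its part in these values was not tested. Their intervals reached 0.405-fold for *Aqp4* and 2.04-fold for *Slc1a3*. The median log2 difference was 0.08 over the 7 members and 0.00 over all genes.

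Of 69 genes in the further glial lists, 10 (14.5%) were called in choroid with PLX, 4 higher and 6 lower, beside 7.13% of all genes. Limma called 0 of 11 genes of glutamate and amino acid handling (median log2 difference −0.05) and 0 of 11 of potassium and water handling (0.15), and no difference between *Kcnj10* and these genes was tested. Of 13 glial transcription factors (median 0.05) the Notch target *Hes1* rose by 0.29. Of 12 further Müller glia genes (−0.10) *Slc14a1*, a urea transporter gene, fell by 1.47 and *Lxn*, which encodes latexin, fell by 0.32. In the ABCA8 and Wnt list of 9 genes (0.15) *Dkk2* rose by 0.37 and *Abca9* fell by 0.39. Of 13 gliosis genes (0.01) 2 rose, *Steap4* by 0.37 and the growth factor gene *Fgf2* by 0.38, and 3 fell. Among these, *Serpina3n* fell by 0.43 and the endothelin gene *Edn2* fell by 2.34. The adjusted p of these glial genes ran from 0.00117 (*Dkk2*) to 0.0321 (*Hes1*) for those named. *Slc14a1* and *Edn2* were 11.8-fold and 43.9-fold higher in retina than in choroid, and the rod score differed by −1.03 in the same comparison. The endothelial genes *Tek*, *Cldn5* and *Pecam1* rose by 0.22, 0.41 and 0.24, and the complement gene *C1qa* fell by 3.40.

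RefSeq promoters (GRCm38.p6, 250 bases before to 50 after a gene's start) were matched for *Glul*, *Slc1a3*, *Kcnj10* and *Abca8a*, 4 of the 7 members. They were searched on both strands for the SOX words ACAAAG and ACAATG, because *Sox9* is a SOX factor. The promoters of the transporter and channel genes that moved together in retina are shown, with the word in capitals.

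Kcnj10 (chr1:172340960-172341259 of GRCm38.p6, plus strand): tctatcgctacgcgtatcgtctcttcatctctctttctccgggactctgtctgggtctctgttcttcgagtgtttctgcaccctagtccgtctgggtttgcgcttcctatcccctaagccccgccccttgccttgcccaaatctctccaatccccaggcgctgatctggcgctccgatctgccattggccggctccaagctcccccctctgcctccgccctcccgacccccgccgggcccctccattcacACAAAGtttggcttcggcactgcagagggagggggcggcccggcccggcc

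Slc1a3 (chr15:8710758-8711057 of GRCm38.p6, minus strand): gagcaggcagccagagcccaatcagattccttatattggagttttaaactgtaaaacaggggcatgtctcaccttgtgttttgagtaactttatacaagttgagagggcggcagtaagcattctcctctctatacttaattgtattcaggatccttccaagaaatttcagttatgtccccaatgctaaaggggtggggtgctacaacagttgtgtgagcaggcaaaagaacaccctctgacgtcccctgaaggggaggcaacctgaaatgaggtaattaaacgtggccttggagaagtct

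The *Kcnj10* promoter held ACAAAG at the annotated start of the gene, and the other 3 held neither word. Over all 32851 promoters of this length, 9394 (28.6%) held at least 1 of the words, so 1 of 4 is close to the general share. The letters are a description of the window and say nothing of binding.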

How the data were processed

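Polyadenylated RNA of 20 retinae and 20 choroids was sequenced in stranded libraries. The authors checked the reads with FastQC 0.11.5, quantified them with Salmon 1.10.1 against the GRCm39 transcriptome (GENCODE release 29), used tximport for import and DESeq2 1.36.0 for normalization. They deposited the normalized signal per gene, here called normalized counts and given with decimals. The study analysed the tissues separately, but the deposited values show 1 scaling over both: the median ratio to the geometric mean, over 15800 genes above 0 throughout, was 1.0082 in each of the 40 libraries, against 0.983 to 1.036 within a tissue. Low values lay within 0.1 of a whole read in 50.9% to 79.1% of cases, so whole reads were not recovered, depth is approximate, and no count test was run. Reads carry no molecular identifiers.

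Symbols and positions were taken from GENCODE release 39 of GRCm39 (53700 of 54307 identifiers matched). Genes whose mean reached 1 in the libraries of a fit were tested with limma 3.58.1 (R 4.3.3, mean-variance trend) on log2(normalized count + 1), a scale that understates the change of low genes, and called at a Benjamini-Hochberg adjusted p at or under 0.05. The 4 groups of a tissue entered 1 fit, with 23243 genes in retina and 23619 in choroid. The tissue comparison (24317 genes) used the mouse as replicate block, because library names give the same mouse number to both tissues; the groups compared within a tissue share no mouse. Single genes were tested by two-sided exact permutation over mice, using 252 relabellings for 5 against 5 and 63504 within genotype or diet. Correlations used 100000 resamples. The other software was scipy 1.17.1, pandas 2.3.3 and numpy 2.4.6 under Python 3.11.15, and the limma steps were also run on simulated data. There, 2-fold changes were set between genotypes without PLX in 200 genes with a mean of at least 100 normalized counts. Of these, 80% were called in retina and 82% in choroid.

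Members and gene lists were chosen with earlier results of these data known. Named are all 7 members, *Tgfbr2*, up to 4 called genes of lowest p per further list, and the 3 genes most alike each member, 1 of which is not reported here. Alternatives were pseudocount 5, no filter, other scalings, a sex score or rod score as covariate, fits of the 10 mice of a diet, and each mouse left out in turn. The authors' covariates (sex, neuronal percentage) are not in the labels and did not enter the reported fits. In control + PLX, the sex score (Y-linked genes less *Xist*) was positive in mice 11, 12 and 13 and negative in 14 and 15. In *Tgfbr2*ΔEC + PLX it was positive in mouse 16 and negative in 17 to 20, so sex was not balanced between these groups. The lists matched all listed symbols except *Fcrls*.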

Additional observations from a re-analysis of the deposited data

Results flagged for a closer look

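Within a group of 5 mice, a value was picked out when its gap to the nearest other mouse took up more than 0.710 of the range of the group (Dixon's 95% value). Of 56 groups of member values, 3 held such a mouse, and chance alone would give about 2.8 (1 in 20). The choroid of mouse 20 (*Tgfbr2*ΔEC + PLX) had 44798 normalized counts of *Glul*, with a gap of 0.745 of the range. The choroid of mouse 15 (control + PLX) had 338 normalized counts of *Aqp4* (0.743). The retina of mouse 7 (*Tgfbr2*ΔEC – PLX) had 6904 normalized counts of *Abca8a* (0.867).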

How the results depend on the processing

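The lists of called members held under nearly all alternatives. In the tissue comparison 7 members were called in every fit, and in retina 0 were. In choroid with PLX, 1 member was called in the reported fit, 0 with the rod score as covariate, and 0 to 2 when 1 mouse was left out. The rod score itself separated the genotypes without PLX, so as a covariate it also takes up part of that contrast. For the genotypes with PLX in choroid, the 1 gene called over all genes became 0 with pseudocount 5, with the sex score, with the rod score, and in the fit of 10 mice, and 0 to 1 with 1 mouse left out. Without PLX in choroid it became 201 in the fit of 10 mice and 1 to 410 with 1 mouse left out, the highest without mouse 15, a control + PLX choroid rich in rod RNA. In retina with PLX the genotypes gave 0 to 1. The causes were not tested. The replicate block changed no call of a member (19929 genes without it, 19932 with it).

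Some log2 differences that were not called changed sign, the largest as reported being the difference of genotype effects in choroid for *Slc1a3* (0.39) and *Abca8a* (0.22). With the sex score these were *Sox9* without PLX (0.0012), *Abca8a* with PLX (0.0030) and *Glul* between diets (−0.015) in retina, and with PLX *Slc1a3* (−0.050) and *Sox9* (−0.029) in choroid. With the rod score they were *Abca8a* without PLX (−0.27) and its difference of genotype effects (−0.13) in choroid, and with rescaling within the tissue the difference of genotype effects of *Glul* in retina (−0.0030). With 1 mouse left out, uncalled values that crossed 0 in retina ranged, between genotypes without PLX, from −0.10 to 0.012 for *Dkk3* and −0.060 to 0.052 for *Sox9*. With PLX they ranged from −0.082 to 0.036 for *Slc1a3*, −0.15 to 0.11 for *Aqp4*, −0.069 to 0.14 for *Kcnj10*, −0.19 to 0.074 for *Abca8a* and −0.040 to 0.13 for *Sox9*. Between diets they ranged from −0.032 to 0.062 for *Glul* and −0.074 to 0.057 for *Abca8a*, and for the difference of genotype effects from −0.090 to 0.0997 for *Glul*, −0.0066 to 0.11 for *Slc1a3*, −0.23 to 0.068 for *Abca8a* and −0.14 to 0.034 for *Sox9*. In choroid they ranged without PLX from −0.020 to 0.20 for *Glul*, −0.082 to 0.13 for *Kcnj10* and −0.0016 to 0.27 for *Abca8a*. With PLX they ranged from −0.18 to 0.40 for *Slc1a3*, −0.16 to 0.41 for *Aqp4*, −0.054 to 0.068 for *Dkk3*, −0.30 to 0.13 for *Abca8a* and −0.13 to 0.092 for *Sox9*. Between diets *Abca8a* ranged from −0.050 to 0.17, and the difference of genotype effects from −0.0024 to 0.79 for *Slc1a3*, −0.0068 to 0.12 for *Dkk3* and −0.020 to 0.42 for *Abca8a*. Of the member values with 1 mouse left out, 1190 kept their sign and their side of the threshold.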
